A study of Mus musculus with 5 samples.

Results

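Chemokines are small secreted proteins that guide white blood cells, and the data described here are the levels of 45 chemokine and chemokine receptor genes in macrophages sorted from the mouse aorta. The members were a fixed list of symbols, 29 ligands and 16 receptors, and each was found as 1 Ensembl gene ID among the 41388 genes of the count tables. The 3 adventitia libraries came from mice of strain C57BL/6 and genotype ApoE-/-, which lack the lipid carrier apolipoprotein E, fed high fat diet over 28 weeks; the labels name 6 mice for these 3 libraries. Their cells were sorted as PI- CD64+ from the outer aortic layer, the abdominal part included. The 2 intima libraries came from C57BL/6 mice with no genotype label, each from 5 pooled mice, and their cells were sorted as PI-CD64+ CD11c+ MHC II+ from thoracic aorta whose outer layer had been peeled away, and no step that removed the middle layer is named. PI, propidium iodide, stains dead cells, CD64 is the Fc receptor used to gate macrophages, and the CD11c and MHC II gates were used for intima only. Both tissues were digested with the same enzymes before sorting. The labels give no age, and a diet for the adventitia mice only. Aortic layer, genotype, diet, segment and gate differ together between the groups and cannot be told apart.

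Most chemokines are named for the spacing of their leading cysteines, as CC, CXC, CX3C or XC ligands. They act through receptors that span the membrane and signal through inhibitory G proteins, while atypical receptors bind and remove ligand without that signal. Macrophages of the vessel wall are known both as sources of chemokines for monocytes, neutrophils and lymphocytes and as cells that carry several of the receptors.

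The libraries held 3941381 to 20806925 counted reads, so that 3 reads, used here as the floor of detection, corresponded to 0.144 to 0.761 CPM (reads scaled to library size). The 10 macrophage markers, among them Fcgr1, which encodes CD64, were read in all 5 libraries, with summed levels of 19643 to 29655 CPM in adventitia and 27865 and 19118 CPM in intima. Across 13408 genes that passed a filter on low counts, edgeR's quasi-likelihood test called 70 higher and 20 lower in intima at an adjusted p under 0.05. That split was 46 and 29 when scaled by the upper quartile, 59 and 34 by library size alone, 135 and 261 when every library of a group had to reach 1 CPM, 490 and 700 with DESeq2 and 214 and 625 with limma voom. The labels do not say how the 6 ApoE-/- mice were divided, so a p-value here reflects only how far these libraries spread, and that may be technical in part.

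Of the 45 members, 35 passed the filter and 10 did not. In the edgeR test 2 members fell in intima, Cxcl13 and Ccl12, where 0.149% of all tested genes were called lower. No member was called higher, where 0.522% of all tested genes were. At an unadjusted p under 0.05 edgeR counted 18 members, against 22.4% of all tested genes, with 5 higher and 13 lower, against 8.16% and 14.3%. DESeq2 called 2 members higher, Ackr3 and Cx3cr1, and 10 lower, against 3.65% and 5.22% of all genes, and limma voom called 1 higher, Cx3cr1, and 9 lower, against 1.60% and 4.66%. In edgeR under other settings, where the members called are counted in the closing section, the shares of all genes called higher and lower were 0.477% and 0.194% with size factors of the DESeq2 type, 0.343% and 0.216% for the upper quartile and 0.440% and 0.254% for library size alone. They were 0.986% and 0.234% over every gene with a read, 1.27% and 2.45% with the 1 CPM filter, 0.483% and 0.273% with thinned counts and 0.992% and 0.373% with the replicate number as a block. Without adventitia replicate 1 no member was called, where 0.0730% and 0.00811% of genes were called higher and lower. Without adventitia replicate 2 or 3 Cxcl13 alone was called, where 0.0940% and 0.0392% of genes were called lower. Without intima replicate 1 edgeR called Cx3cr1 higher and 9 members lower, Ccl2, Ccl6, Ccl7, Ccl8, Ccl9, Ccl12, Ccl24, Cxcl13 and Pf4, where 1.47% and 1.03% of genes were called. Without intima replicate 2 it called Ccl8, Ccl12 and Cxcl13 lower, where 0.267% of genes were. The members called lower by both DESeq2 and limma voom were Ccl2, Ccl6, Ccl7, Ccl8, Ccl9, Ccl12, Ccl19, Ccr2 and Cxcl13, and DESeq2 added Ccl11. The ranges of TMM-normalised CPM stood apart in 25 of the 35 members, against 40.9% of all tested genes, with 9 higher and 16 lower in intima, against 17.7% and 23.2%. Members such as Ccl11, Ccl17, Ccl19 and Cxcl13 passed the filter through the adventitia libraries alone, so these counts describe the members and support nothing further.

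Of 25 tested ligands, 20 had a log2 difference, always given as intima minus adventitia, under 0, with a median of -2.17, which was the same with the 3 ligands that had no intima read set at their bounds. Of 10 tested receptors, 8 had a difference above 0, with a median of 2.00. Over all 13408 tested genes 6247 lay under 0 and 7161 above 0. The receptors rested in part on intima replicate 2: without it Ccr7, Cxcr2 and Cxcr5 lay under 0, 5 of the 10 stayed above 0 and their median was 0.25, while the ligand median was -1.54. Over the other settings 6 to 8 of the 10 receptors were above 0 where all 10 had a value. In these settings Ccr7 lay under 0 for the upper quartile and without adventitia replicate 1. Cxcr2 did so for the replicate block, and Cxcr2 and Cxcr5 for limma voom. The median of all 35 tested members was -1.06, beside 0.14 over all tested genes. Scaling by the upper quartile gave medians of -1.58 and -0.35, and library size alone gave -1.31 and -0.09. In sorted bulk samples, fewer cells of a type and less RNA per cell cannot be told apart.

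**Figure D1:**
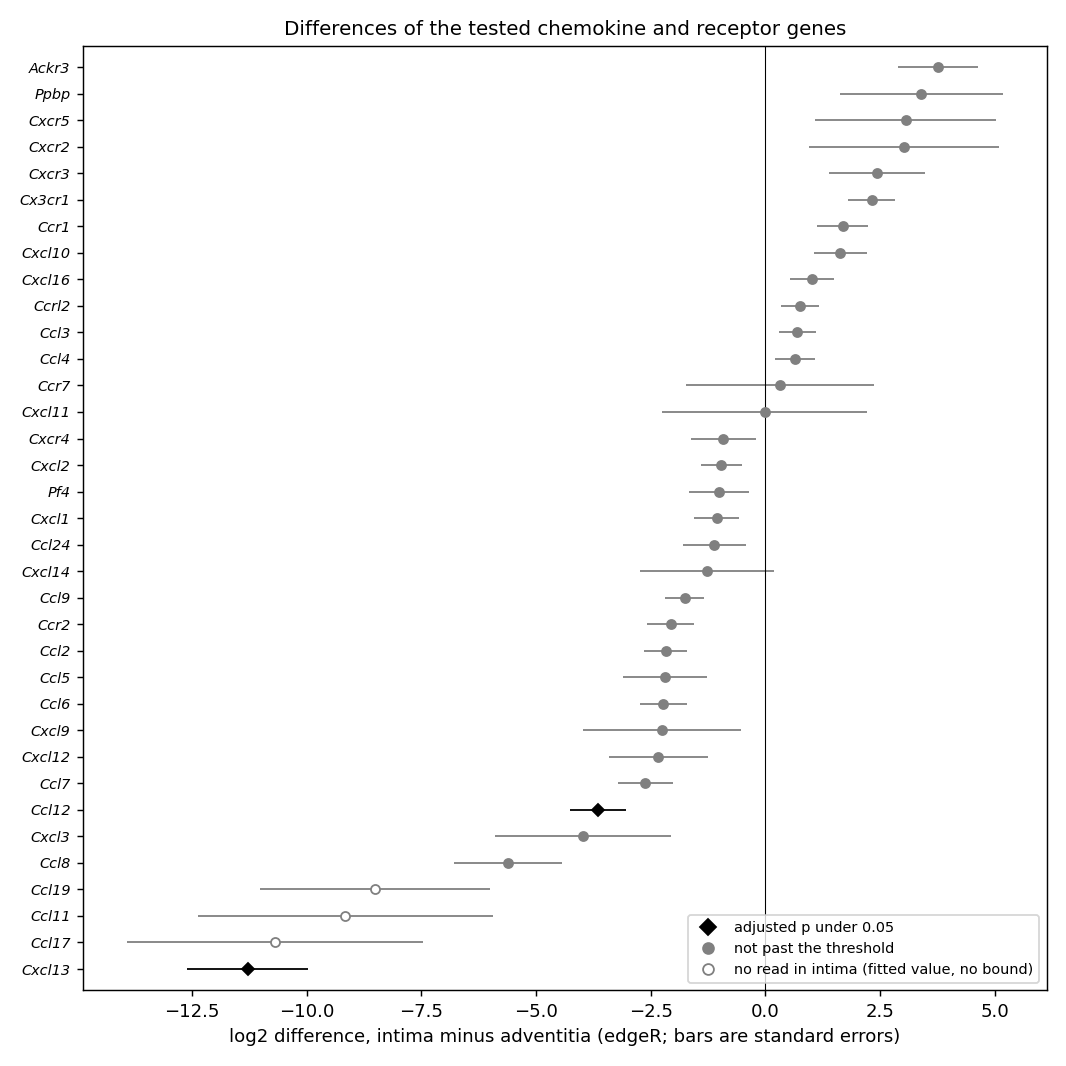
Log2 differences between intima and adventitia for the 35 tested members, ordered by size, with bars of 1 standard error from edgeR. Cxcl13 and Ccl12 (black diamonds) passed the adjusted threshold, open circles mark 3 ligands with no intima read, and the receptors Ackr3, Cxcr5, Cxcr2, Cxcr3, Cx3cr1 and Ccr1 sit on the right.

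Chemokine ligands made up a large part of the RNA in both sorts. Ligand members took 4.31, 4.69 and 4.21% of all counted reads in adventitia replicates 1, 2 and 3 and 1.80 and 1.38% in intima replicates 1 and 2. Summed per length, as TPM (counts divided by gene length and scaled to the same total in each library), the ligands were at 101020, 117850 and 102090 TPM in adventitia and at 44560 and 38207 TPM in intima. The groups did not overlap, and no test was made of a sum over members. Without the 4 genes of the monocyte chemoattractant protein (MCP) group, Ccl2, Ccl7, Ccl8 and Ccl12, the sums were 49230, 47316 and 40106 TPM against 38081 and 35467 TPM, so most of the gap lay in those 4 genes.

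The make-up of the ligand RNA also differed between the groups. The MCP genes Ccl2, Ccl7, Ccl8 and Ccl12 held 51.3, 59.9 and 60.7% of the ligand TPM in the adventitia libraries and 14.5 and 7.17% in the intima libraries. Ccl3 and Ccl4, the macrophage inflammatory protein genes, held 15.9, 16.9 and 12.7% in adventitia and 53.8 and 65.5% in intima. In each adventitia library the ligand with the highest TPM was Ccl8, and in each intima library it was Ccl4. Ccl4 ranked 3, 2 and 3 in adventitia, whereas Ccl8 ranked 9 and 14 in intima. These are shares of a sum, so a gain of one gene group lowers the others.

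**Figure D2:**
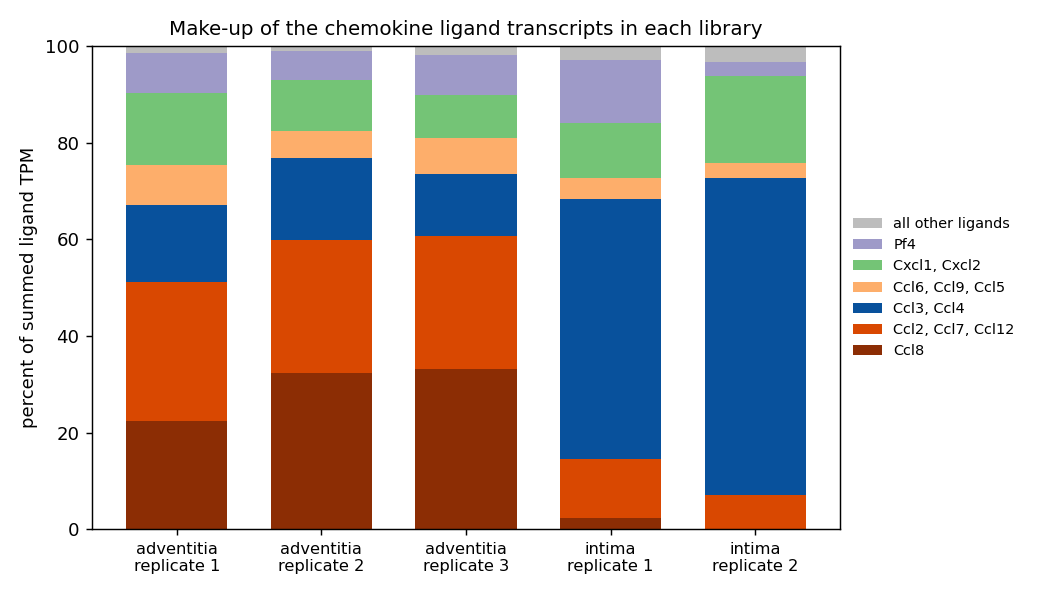
Percent of the summed ligand TPM taken by each ligand group in each library, stacked to 100. Ccl8 with Ccl2, Ccl7 and Ccl12 (brown and orange) takes 51.3 to 60.7% of each adventitia bar, and Ccl3 with Ccl4 (blue) takes 53.8 and 65.5% of the intima bars.

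The MCP genes, most of which act on CCR2, the receptor by which monocytes leave marrow and enter tissue, were all lower in both intima libraries than in any adventitia library. Ccl12, which encodes MCP-5, was at 2518, 3373 and 2875 CPM in adventitia replicates 1, 2 and 3 and at 361 and 108 CPM in intima replicates 1 and 2. In intima it fell by 3.64 in log2 terms (SE 0.61, edgeR adjusted p = 0.0210). The call held without either intima library but not without adventitia replicate 1, 2 or 3, where the adjusted p in edgeR was 0.208, 0.0589 and 0.0629, and over all alternatives it ranged from 9.65e-12 to 0.208. The gene (ENSMUSG00000035352) lies on chromosome 11 from 82101845 to 82103400 in GRCm38, on the plus strand.

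Ccl8, which encodes MCP-2 and in mouse is known above all as a ligand of CCR8, had the widest gap among the 4. It was at 5078, 9646 and 9073 CPM in adventitia and at 311 and 12.1 CPM in intima. Each intima library was far below every adventitia library, and the intima libraries also differed widely from each other. The log2 difference of -5.62 (SE 1.18) missed the threshold (edgeR adjusted p = 0.0657). The adjusted p in edgeR was 0.00488 without intima replicate 2 and 2.43e-04 without intima replicate 1, with the single intima library left assumed to vary as the others do, and over all alternatives it ranged from 1.23e-36 to 0.234.

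Ccl7 and Ccl2 encode MCP-3 and MCP-1, the latter the main monocyte attractant of inflamed vessels. Ccl7 was at 3402, 4172 and 4596 CPM in adventitia and at 1045 and 279.7 CPM in intima. Its log2 difference was -2.62 (SE 0.60, edgeR adjusted p = 0.0868). Ccl2 was at 4371, 5054 and 4165 CPM in adventitia and at 1273 and 733 CPM in intima. Its log2 difference was -2.17 (SE 0.48, edgeR adjusted p = 0.0783), and that p was 0.0403 when scaled by the upper quartile and 0.0289 by library size alone, in a range of 3.19e-05 to 0.227 over all alternatives. In all 4 genes intima replicate 2 was the lowest library.

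The CC ligands of the macrophage inflammatory protein group were split. Ccl4, which encodes MIP-1 beta, was at 3605, 5164 and 3586 CPM in adventitia and at 7088 and 5750 CPM in intima. Ccl3, which encodes MIP-1 alpha, was at 1203, 1553 and 1049 CPM in adventitia and at 2271 and 1845 CPM in intima. For both genes the intima libraries were above every adventitia library in TMM-normalised CPM. The size of the difference depended on the scaling: for Ccl4 and Ccl3 it was 0.16 and 0.22 in log2 terms with upper-quartile scaling. With counts thinned to the smallest library it was 0.26 and 0.31. The log2 differences were 0.64 for Ccl4 (SE 0.44, edgeR adjusted p = 0.430) and 0.70 for Ccl3 (SE 0.41, edgeR adjusted p = 0.342), and neither passed.

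Ccl6 and Ccl9 are CC ligands of rodents that act on CCR1 and are made in bulk by myeloid cells. Ccl6 was at 5616, 4793 and 6483 CPM in adventitia and at 1637 and 767 CPM in intima, with a log2 difference of -2.23 (SE 0.51, edgeR adjusted p = 0.0868). Ccl9 was at 1305, 1469 and 1300 CPM in adventitia and at 449 and 352 CPM in intima, with a difference of -1.76 (SE 0.42, edgeR adjusted p = 0.0868). Both genes had lower levels in intima without overlap, and neither passed. Ccl5, which encodes RANTES and attracts T cells and monocytes, was scarcer, at 73.9, 142 and 42.6 CPM in adventitia and 33.2 and 4.78 CPM in intima (log2 difference -2.19, SE 0.91, edgeR adjusted p = 0.182). The difference of Ccl5 was -4.30 without intima replicate 1 and -1.29 without intima replicate 2.

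These CC ligands sit in 2 gene clusters of chromosome 11, and in the second cluster the differences had both signs. The cluster from 82035571 to 82116799 holds Ccl2, Ccl7, Ccl11, Ccl12 and Ccl8 in that order, all on the plus strand, and all 5 had a log2 difference under 0. The cluster from 83525778 to 83664683 holds Ccl5, Ccl9, Ccl6, Ccl3 and Ccl4. There Ccl5, Ccl9 and Ccl6 had differences under 0, and Ccl3 and Ccl4, at the far end, had differences above 0. Genes of a cluster are not independent points, and no test was made of their order.

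**Figure D3:**
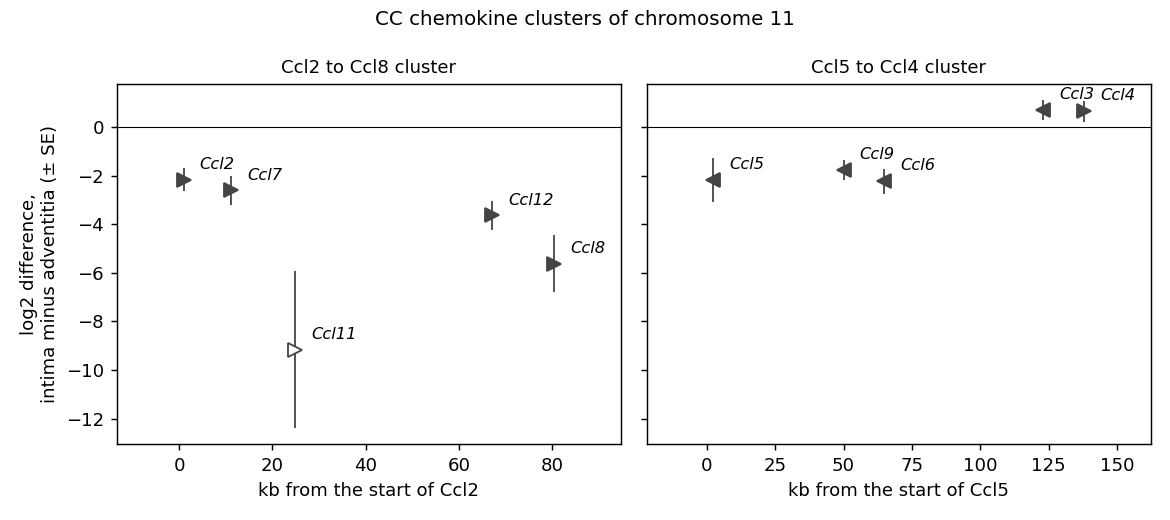
Log2 difference with 1 SE (edgeR) against the distance in kb from the start of each CC cluster of chromosome 11, with triangles pointing along the strand. All 5 genes of the Ccl2 to Ccl8 cluster lie under 0, from -2.17 for Ccl2 to -5.62 for Ccl8 and a fitted -9.16 for Ccl11 (open symbol, no intima read), while Ccl3 and Ccl4 lie at 0.70 and 0.64.

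The DNA just before the start of the genes is shown for Ccl12 and Ccl8, neighbours that were low together in intima, for Ccl3 of the other cluster, for Cxcl13, the other member that fell, and for Cxcl10, an interferon-induced ligand. The sequences are from RefSeq on GRCm38.p6, on the gene's own strand, and end before the gene as the count tables place it. Capitals mark matches to TATAAA (the TATA box), GGG, any 2 bases, TT, any base and CC (a kappa B type), GAAA, any 2 bases and GAAA (an interferon response type) and TGANTCA (an AP-1 type), each searched on both strands.
Ccl12, chr11:82101595-82101844, plus strand: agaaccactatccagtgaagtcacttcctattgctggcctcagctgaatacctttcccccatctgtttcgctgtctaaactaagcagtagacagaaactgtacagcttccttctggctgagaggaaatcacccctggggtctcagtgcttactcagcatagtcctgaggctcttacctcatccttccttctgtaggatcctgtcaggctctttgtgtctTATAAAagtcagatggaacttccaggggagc
Ccl8, chr11:82114935-82115184, plus strand: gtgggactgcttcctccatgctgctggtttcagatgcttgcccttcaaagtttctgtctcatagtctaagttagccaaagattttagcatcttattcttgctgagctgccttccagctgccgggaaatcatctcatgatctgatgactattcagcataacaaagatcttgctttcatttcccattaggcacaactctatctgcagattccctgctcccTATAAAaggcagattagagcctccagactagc
Ccl3, chr11:83649379-83649628, minus strand: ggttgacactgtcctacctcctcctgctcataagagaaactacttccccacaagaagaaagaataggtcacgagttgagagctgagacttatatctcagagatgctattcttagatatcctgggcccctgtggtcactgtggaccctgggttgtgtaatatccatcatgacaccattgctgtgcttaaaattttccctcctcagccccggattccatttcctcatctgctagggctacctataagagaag
Cxcl13, chr5:95956689-95956927, plus strand: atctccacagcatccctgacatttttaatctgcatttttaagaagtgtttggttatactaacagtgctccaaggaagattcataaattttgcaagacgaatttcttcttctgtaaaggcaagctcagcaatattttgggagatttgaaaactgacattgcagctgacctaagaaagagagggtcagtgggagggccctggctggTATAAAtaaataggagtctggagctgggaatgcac
Cxcl10, chr5:92348890-92349139, minus strand: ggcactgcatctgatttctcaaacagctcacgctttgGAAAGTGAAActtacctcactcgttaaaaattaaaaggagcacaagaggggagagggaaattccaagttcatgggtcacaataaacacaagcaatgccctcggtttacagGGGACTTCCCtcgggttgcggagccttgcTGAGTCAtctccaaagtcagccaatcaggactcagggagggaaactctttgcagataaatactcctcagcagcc

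In these stretches the TATAAA match of Ccl12 began 31 bases and that of Ccl8 32 bases before the RefSeq start. TTCNNNGAA (an interferon gamma activated type, N any base) was also searched on both strands and matched none of these stretches. Ccl3 held none of the searched letters. Over the 250 bases before the start, RefSeq entries existed for 34 members. TATAAA was in 11 of these 34, Cxcl9 and Cxcl3 among them, against 14.3% of 27025 genes with an entry. The kappa B type was in 10 of the 34, against 4.71% of genes, among them Cxcl1, Cxcl2, Cxcl3, Cxcl9 and Cxcl10. The interferon response type was in 3, Ccl19, Cxcl10 and Cxcl14, against 3.46% of genes, and TGANTCA in 4, Ccl9, Ccr3, Cxcl10 and Ppbp, against 7.82%. TTCNNNGAA was in 3, Ccl17, Ccr6 and Cxcl14, or 8.82% of the 34, close to its 8.13% of genes. A match describes letters and is no evidence of a bound factor. Members on both sides of 0 held kappa B type letters, such as Cxcl10 above and Cxcl1, Cxcl2, Cxcl3 and Ccl9 below.

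**Figure D4:**
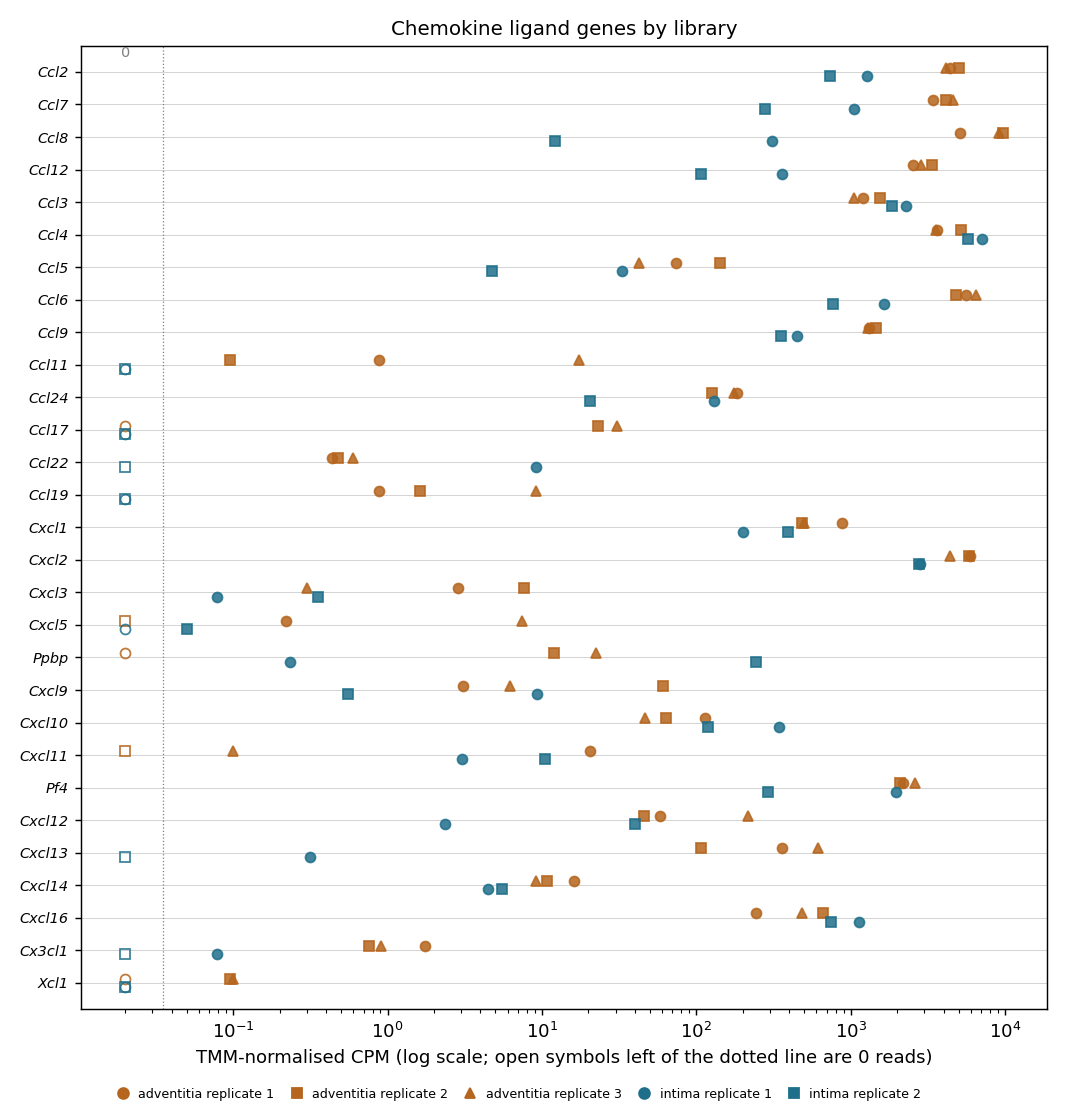
TMM-normalised CPM of the 29 ligand genes in each library on a log axis, adventitia in brown and intima in blue, with open symbols for 0 reads. The blue points lie left of the brown ones for Ccl2, Ccl7, Ccl8, Ccl12, Ccl6, Ccl9 and Cxcl13 and right of them for Ccl3, Ccl4, Cxcl10 and Cxcl16.

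Cxcl13, which attracts B cells through CXCR5, fell by 11.29 in log2 terms in intima (SE 1.32, edgeR adjusted p = 0.00287). It was at 360 CPM, 108 CPM and 617 CPM in adventitia replicates 1, 2 and 3, and its reads were 1645, 1136 and 6165. Intima replicate 1 held 4 reads, or 0.314 CPM, and intima replicate 2 held none. Every adventitia library was thus far above both intima libraries. The gene (ENSMUSG00000023078) lies on chromosome 5 from 95956928 to 95961067. Without adventitia replicate 1 the adjusted p was 0.118 in edgeR, and without any other library it stayed under the threshold, in a range of 2.53e-24 to 0.118 over all alternatives. Cxcr5, the gene of its receptor, was at 0.438, 1.24 and 0.200 CPM in adventitia, had no read in intima replicate 1 and was at 10.7 CPM in intima replicate 2.

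The eotaxin type ligands attract eosinophils through CCR3. Ccl24 was at 184, 127 and 176 CPM in adventitia and at 130 and 20.5 CPM in intima, with overlapping groups (log2 difference -1.11, SE 0.69, edgeR adjusted p = 0.378). Its difference was -3.12 without intima replicate 1, where edgeR called it (adjusted p = 0.0392), and -0.23 without intima replicate 2. Ccl11 had 4, 1 and 175 reads in adventitia and none in intima. Nearly all of its reads were in adventitia replicate 3, and against a floor of 3 reads over the intima group its level was lower by at least 78.1-fold, or by at least 3.60-fold without adventitia replicate 3. Ccr3 had 1, 1 and 15 reads in adventitia and none in intima.

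Ccl17, Ccl22 and Ccl19 are made by dendritic and stromal cells and guide T cells and maturing dendritic cells, the first pair through CCR4 and Ccl19 through CCR7. Ccl17 had 0, 242 and 304 reads in the adventitia libraries and none in either intima library. As adventitia replicate 1 also had none, the groups overlapped, and over the groups it was at least 237-fold lower in intima (edgeR adjusted p = 0.113). Ccl22 went the other way in 1 library: it had 116 reads in intima replicate 1, none in intima replicate 2 and 2, 5 and 6 in adventitia, and it did not pass the filter. Ccl19 had 4, 17 and 92 reads in adventitia and none in intima, at least 49.0-fold lower (edgeR adjusted p = 0.113), or at least 15.1-fold lower without adventitia replicate 3. Ccl19 has near-identical copies in the mouse genome, so its count is uncertain. Of 9 dendritic markers all were tested and none called, with summed levels of 76.3 to 110 CPM in adventitia and 84.7 and 34.8 CPM in intima and Xcr1 at 0 in both intima libraries. Flt3, Zbtb46, Itgae, Dpp4 and Fscn1 were also lower in both intima libraries than in any adventitia library. Clec9a went the other way, with both intima libraries above every adventitia library. Batf3 and Siglech were below every adventitia library in intima replicate 2 only. The part of these markers in these results was not tested.

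Neutrophil attractants that act on CXCR2 were abundant in both sorts. Cxcl2 was at 5962, 5876 and 4411 CPM in adventitia and at 2820 and 2754 CPM in intima. Cxcl1 was at 879, 483 and 502 CPM in adventitia and at 201 and 394 CPM in intima. Both were lower in each intima library than in any adventitia library, with log2 differences of -0.96 (SE 0.44) and -1.06 (SE 0.48), and neither passed (edgeR adjusted p = 0.227 and 0.223). Cxcl3 was near the floor, at 13, 81 and 3 reads in adventitia and 1 and 7 in intima. Cxcl5 was read almost only in adventitia replicate 3, with 1, 0 and 74 reads in adventitia and 0 and 1 in intima, and was not tested.

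Ppbp and Pf4 encode the platelet alpha granule chemokines, and Pf4 is also made by macrophages. Ppbp was at 0, 11.9 and 22.3 CPM in adventitia, and at 0.235 and 242 CPM in intima replicates 1 and 2. One library thus carried its fitted difference of 3.40 (SE 1.78, edgeR adjusted p = 0.285), which turned to -5.45 without intima replicate 2. The other 6 platelet markers, among them Itga2b and Gp9, summed to 0.157 and 60.7 CPM in intima replicates 1 and 2, against 1.43 to 7.66 CPM in adventitia. Of the platelet markers 4 were tested and none called, and Gp1ba was at 0 in both intima libraries. Their part in the level of Ppbp was not tested. Pf4 did not follow Ppbp: it was at 2177, 2089 and 2597 CPM in adventitia, and at 1975 and 289.9 CPM in intima (log2 difference -1.01, SE 0.66, edgeR adjusted p = 0.400). The difference of Pf4 was -3.12 without intima replicate 1, where edgeR called it (adjusted p = 0.00865), and -0.12 without intima replicate 2.

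Cxcl9, Cxcl10 and Cxcl11 are interferon-induced ligands of CXCR3, neighbours on chromosome 5, and attract activated T cells. Cxcl10 was at 113, 63.7 and 46.7 CPM in adventitia and at 345 and 118 CPM in intima, higher without overlap but with intima replicate 2 close to adventitia replicate 1. Its log2 difference was 1.64 (SE 0.58, edgeR adjusted p = 0.135), and 0.54 without intima replicate 1. Cxcl9 was at 3.06, 60.4 and 6.20 CPM in adventitia and at 9.25 and 0.554 CPM in intima, with a difference of -2.25 (SE 1.72, edgeR adjusted p = 0.490) that was 0.040 without adventitia replicate 2. Cxcl11 had 94, 0 and 1 reads in adventitia and 39 and 208 reads in intima (log2 difference -0.01, SE 2.23, edgeR adjusted p = 0.998), and its sign turned in 5 of the settings tried. The 3 neighbours thus gave 3 different patterns over the libraries. Of the exon bases of Cxcl10, 133 of 1520 overlap Art3 on the other strand, and the strand setting of the counting was not given.

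Cxcl16 and Cx3cl1 encode the membrane-bound chemokines, which are freed by the proteases ADAM10 and ADAM17, and Cxcl16 also serves as a scavenger receptor for oxidised lipid. Cxcl16 was at 243, 661 and 487 CPM in adventitia and at 1138 and 747 CPM in intima, higher without overlap (log2 difference 1.02, SE 0.48, edgeR adjusted p = 0.231). Zmynd15, on the other strand, overlaps 552 of its 3021 exon bases and had 927 reads in adventitia and 4738 in intima, and its part was not tested. Cx3cl1 was barely read, with 8, 8 and 9 reads in adventitia and 1 and 0 in intima, a ratio of 32.5 (95% counting interval 5.84 to 1285). Xcl1, a ligand of lymphocytes, had 0, 1 and 1 reads in adventitia and none in intima. Adam10 was at 141, 315 and 309 CPM in adventitia and at 375 and 291 CPM in intima, and its difference of 0.38 turned sign with upper-quartile scaling. Adam17 was at 70.4, 125 and 102 CPM in adventitia and at 127 and 189 CPM in intima, and neither gene passed (edgeR adjusted p = 0.693 and 0.462).

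Cxcl12, the ligand of CXCR4 that retains stem cells in marrow, and Cxcl14 are mostly stromal genes. Cxcl12 was at 58.6, 46.1 and 217 CPM in adventitia and at 2.35 and 40.2 CPM in intima (log2 difference -2.33, SE 1.09, edgeR adjusted p = 0.231), and its difference was -1.34 without adventitia replicate 3 and -5.42 without intima replicate 2. Cxcl14 was at 16.2, 10.8 and 9.11 CPM in adventitia and at 4.47 and 5.49 CPM in intima (log2 difference -1.27, SE 1.46, edgeR adjusted p = 0.675). Adventitia replicate 3 was the highest library for Cxcl12, Ccl11, Ccl19 and Cxcl5, and also for Cxcl13. It also had the highest sum of 10 fibroblast markers, which came to 692, 645 and 1564 CPM in adventitia and 357 and 296 CPM in intima, with 2 of 10 tested called lower and Pdgfra, Lum, Dpt and Ogn at 0 in intima replicate 2. Other fibroblast markers did not share that pattern: Mfap5 was at 19.7, 15.6 and 46.9 CPM in adventitia and at 43.0 and 60.6 CPM in intima, and Col1a1, Col1a2 and Pi16 in intima replicate 2 lay within the adventitia range. Cxcl14 had its lowest adventitia level, 9.11 CPM, in replicate 3. Adventitia replicate 3 was also the highest library for the B cell markers Ms4a1 and Cd79a, the dendritic marker Zbtb46 and the receptor Ccr7. It was not the highest for Cd79b or Batf3 of the same marker lists. The part of fibroblast RNA in the levels of Cxcl12, Ccl11, Ccl19, Cxcl5 and Cxcl13 was not tested.

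No receptor passed the edgeR test, and 5 of 10 tested had an unadjusted p under 0.05, against 22.4% of all tested genes. Of these 5, 4 were higher and 1 lower in intima, against 8.16% and 14.3% of all tested genes. Cx3cr1, the fractalkine receptor of patrolling monocytes and resident macrophages, was at 72.6, 93.2 and 197 CPM in adventitia and at 440 and 768 CPM in intima. Each intima library was above every adventitia library, and the log2 difference was 2.32 (SE 0.51, edgeR adjusted p = 0.0814). DESeq2 and limma voom called it, with adjusted p-values of 0.00993 and 0.0364. The fit with the replicate number as a block also called it (edgeR adjusted p = 0.00258), but adventitia replicate 3 does not inform the difference in that fit. Without adventitia replicate 3 and with no block the edgeR adjusted p was 0.0733. Over all alternatives the adjusted p ranged from 7.14e-04 to 0.242. Its ligand gene Cx3cl1 was near the floor in the same libraries.

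Ccr2, the receptor of the Ccl2, Ccl7 and Ccl12 products, was at 466, 1023 and 806 CPM in adventitia and at 128 and 239 CPM in intima, the only tested receptor with every intima library below every adventitia library. Its log2 difference was -2.06 (SE 0.51, edgeR adjusted p = 0.0868). Of 8 monocyte markers, all tested, 1 was called lower and none higher, Plac8 and Chil3 were at 0 in intima replicate 2, Treml4 went the other way with 152.8 CPM there against at most 3.71 CPM in adventitia, and the list summed to 1702 to 2060 CPM in adventitia and 851 and 1307 CPM in intima. Their part in the level of Ccr2 was not tested. Ccr1, a receptor of Ccl3, Ccl6 and Ccl9, was at 35.2, 62.4 and 116 CPM in adventitia and at 254 and 205 CPM in intima, higher without overlap (log2 difference 1.68, SE 0.55, edgeR adjusted p = 0.116).

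**Figure D5:**
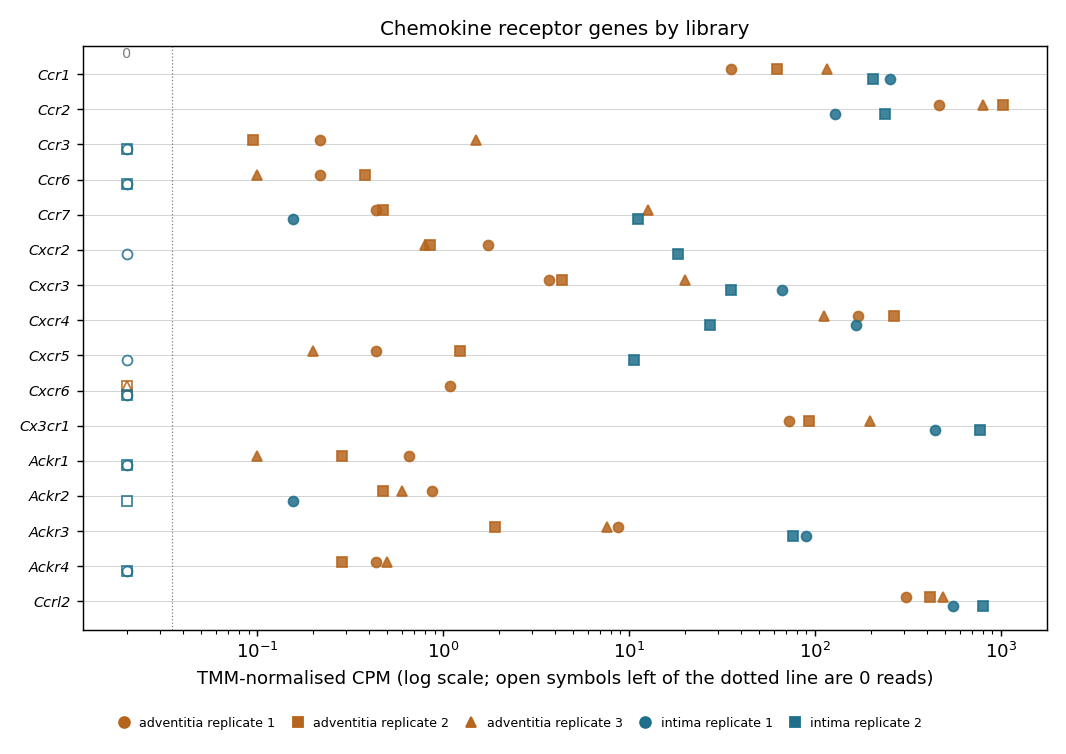
TMM-normalised CPM of the 16 receptor genes in each library on a log axis, adventitia in brown and intima in blue, with open symbols for 0 reads. The blue points lie right of the brown ones for Ccr1, Cxcr3, Cx3cr1, Ackr3 and Ccrl2 and left of them for Ccr2, and Ccr7, Cxcr2 and Cxcr5 have 1 intima library far above the other.

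Cxcr3, the receptor of Cxcl9, Cxcl10 and Cxcl11, was at 3.72, 4.38 and 20.0 CPM in adventitia and at 66.2 and 35.4 CPM in intima (log2 difference 2.43, SE 1.04, edgeR adjusted p = 0.195). Cxcr3 is best known from T cells. Of 10 T and NK cell markers 4 were tested and none called. They summed to 7.99 to 12.2 CPM in adventitia and to 129 and 101 CPM in intima, of which Cd4, also a macrophage gene, gave 128 and 39.3 CPM. The other 9 markers summed to 0.392 CPM in the intima library with the higher Cxcr3, replicate 1, and to 61.4 CPM in replicate 2. Ncr1, Nkg7 and Klrb1c were at 0 in both intima libraries. The part of these cells in the level of Cxcr3 was not tested.

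Cxcr4, the receptor of Cxcl12, was at 171, 266 and 111 CPM in adventitia and at 167 and 27.2 CPM in intima, with overlapping groups (log2 difference -0.91, SE 0.71, edgeR adjusted p = 0.494). Its difference was -2.88 without intima replicate 1 and -0.042 without intima replicate 2. Ccr7, Cxcr2 and Cxcr5 had single libraries that stood out. Ccr7, the homing receptor of maturing dendritic cells, had 2, 5 and 127 reads in adventitia and 2 and 223 in intima. Cxcr2, the receptor of neutrophils, had 8, 9 and 8 reads in adventitia, none in intima replicate 1 and 365 in intima replicate 2. Cxcr5 had 2, 13 and 2 reads in adventitia, none in intima replicate 1 and 212 in intima replicate 2. The fitted differences of 0.32, 3.02 and 3.06 (edgeR adjusted p = 0.953, 0.431 and 0.396) turned to -4.68, -6.37 and -5.60 without intima replicate 2.

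Other cell markers were uneven over the same libraries. Of 7 neutrophil markers 4 were tested and none called. They summed to 58.2 to 105 CPM in adventitia and to 5.49 and 87.6 CPM in intima replicates 1 and 2, with Ly6g and Retnlg at 0 in both intima libraries. In intima replicate 2, the library with the Cxcr2 reads, Csf3r had 1244 reads and S100a9 473. Csf3r was at 62.6 CPM there, against 14.9 to 23.5 CPM in adventitia. S100a9, at 23.8 CPM there, was close to adventitia replicates 1 and 3 (23.2 and 22.9 CPM). S100a8 went the other way, at 19.7 to 49.9 CPM in adventitia and 0.0784 and 1.06 CPM in intima replicates 1 and 2. Of 6 B cell markers 5 were tested and none called. They summed to 204 to 777 CPM in adventitia and to 1127 and 930 CPM in intima, mostly Ighm, with Ms4a1 at 0 in both intima libraries and Cd79a and Pax5, among others, at 0 in intima replicate 2. Their part in the reads of Cxcr2 and Cxcr5 was not tested.

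Ackr3, the atypical receptor that clears Cxcl12, had the largest fitted difference among the receptors. It was at 8.75, 1.90 and 7.61 CPM in adventitia and at 89.2 and 76.2 CPM in intima, and the log2 difference of 3.77 (SE 0.87) missed the threshold (edgeR adjusted p = 0.0868). Both intima libraries were about alike and far above adventitia. Endothelial cells also carry Ackr3, and the 10 endothelial markers summed to 32.6 to 49.9 CPM in adventitia and to 832 and 863 CPM in intima. Of 9 tested, 3 were called higher and none lower, with Cldn5 at 0 in intima replicate 1 and Erg in intima replicate 2. Kdr went the other way, at 1.09, 1.81 and 1.80 CPM in adventitia and at 0.235 and 0.0504 CPM in intima. The 8 smooth muscle markers summed to 3.71 to 8.75 CPM in adventitia and to 318 and 110 CPM in intima, with 1 of 6 tested called higher and Myh11 and Cnn1 at 0 in intima replicate 2. Acta2 (171 and 24.6 CPM) and Tagln (124 and 52.3 CPM) gave most of the smooth muscle sum in intima. Myh11 and Synpo2, few in reads, were below every adventitia library in both intima libraries. The part of either cell type in the level of Ackr3 was not tested. Cxcl12, its ligand, had a difference of the opposite sign.

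Ccrl2 encodes a receptor that binds chemerin without signalling and had the highest TPM of the 16 receptors in all 5 libraries. It was at 307, 414 and 488 CPM in adventitia and at 555 and 804 CPM in intima, higher without overlap (log2 difference 0.75, SE 0.41, edgeR adjusted p = 0.310). After Ccrl2 the order was Cxcr4, Ccr2 and Cx3cr1 in adventitia replicate 1 and Ccr2, Cxcr4 and Cx3cr1 in replicates 2 and 3, while Cx3cr1 came next in both intima libraries. Ackr1, Ackr2 and Ackr4, known from endothelium and lymphatics, had 1 to 6 reads in each adventitia library, none of Ackr1 and Ackr4 in intima and 2 and 0 of Ackr2. Ccr6 had 1 to 4 reads in each adventitia library and none in intima, and Cxcr6 had 5 reads in adventitia replicate 1 and none in any other library.

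Of the other chemokine and receptor genes, 20 were in the tables, 6 were tested and none passed edgeR, with 4 at an unadjusted p under 0.05, against 22.4% of all tested genes. Xcr1, the receptor of Xcl1, had 35, 14 and 12 reads in adventitia and none in intima, at least 26.5-fold lower, or 13.8-fold without adventitia replicate 1 (edgeR adjusted p = 0.108). Ccr4, the receptor of Ccl17 and Ccl22, had 4, 10 and 4 reads in adventitia and 0 and 1 in intima. Of 43 genes of receptor signalling (G proteins, arrestins, receptor kinases, Rac activators and RGS proteins), all were tested and none passed edgeR, with 5 (11.6%) at an unadjusted p under 0.05, against the same 22.4%. Their median log2 difference was 0.26. Of 15 genes of ligand processing and retention, 1 rose, Mmp12, the macrophage elastase, which is known to cut chemokines, by 4.69 in log2 terms (SE 0.53, edgeR adjusted p = 0.00220). It was at 81.4, 87.1 and 187 CPM in adventitia and at 2250 and 3866 CPM in intima, and without adventitia replicate 1 its adjusted p was 0.124 in edgeR, in a range of 9.05e-26 to 0.124 over all alternatives. Over the 3 lists edgeR called 1 gene, against 0.671% of all tested genes, and DESeq2 and limma voom each called 6 of the 64 tested (9.38%), against 8.88% and 6.26% of all genes.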

How the data were processed

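Poly-A RNA of sorted cells became cDNA by the SMARTer Ultra Low method and was amplified over 12 cycles and read as single 50-base reads, per the labels' protocols. Counts per gene were deposited by the authors as whole reads on GRCm38. STAR 2.0.4b, Subread and featureCounts 1.4.5 stand in the submitters' processing notes. The strand setting is not given in the sources used here. The authors also deposited CPM and RPKM, and recomputing both from the counts gave 0 mismatches (tolerance 1e-06). Symbols were found for 40254 of 41388 IDs.

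The test was edgeR 4.0.16 in R 4.3.3 (glmQLFit, glmQLFTest) over all 5 libraries after filterByExpr by group (minimum count 10, minimum total 15) with TMM factors and Benjamini-Hochberg adjustment over 13408 genes. The standard error is the log2 difference over the square root of F. TPM was computed from counts and gene lengths. A single gene in 3 against 2 libraries cannot give an exact two-sided permutation p under 0.1. A fold against a group with no read uses 3 reads over that group, and the 95% interval of a ratio is the exact Poisson interval of the intima count alone. Such intervals cover counting error only, as no molecular identifiers mark PCR copies.

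The members and lists were chosen with earlier results of these data known. All 45 members were to be named, with called genes of 3 pathway lists and Ccr4, Xcr1, Adam10 and Adam17. Alternatives were other scalings, DESeq2 1.42.0, limma 3.58.1 voom, other filters, thinning, a replicate block and each library left out. Tables, intervals and figures used Python 3.11.15, pandas 2.3.3, scipy 1.17.1 and matplotlib 3.10.9. A withheld item named by that rule is not reported here.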

Additional observations from a re-analysis of the deposited data

How the results depend on the processing

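Cxcl13 and Ccl12 were called lower under all 9 alternatives that took in the 5 libraries. In 1 of these, the replicate block, number 3 occurs in adventitia only, so adventitia replicate 3 does not inform the difference between the groups. Members called lower numbered 4 with upper-quartile scaling, thinned counts or the replicate block, 7 with library size alone, 9 with every gene with a read, the 1 CPM filter or limma voom, and 10 with DESeq2. Leaving out a library gave 0 to 9, where 0.00811 to 1.03% of all genes were called lower. Members called higher numbered 3 with every gene with a read, 1 with the 1 CPM filter, the block or limma voom and 2 with DESeq2, and 0 to 1 without a library, where 0.0730 to 1.47% were called higher. Genes called in all numbered 386 with every gene with a read, 396 with the 1 CPM filter, 183 with the block, 1190 with DESeq2 and 839 with limma voom, and 10 without adventitia replicate 1 to 389 without intima replicate 1. Pathway genes called numbered 3 with every gene with a read, 2 with the 1 CPM filter and 6 with DESeq2 or limma voom, and 0 to 3 without a library. The median of the tested members was -1.91 with every gene with a read, where more genes with few reads enter, and -2.08 to -1.02 without a library. Members whose group ranges stood apart numbered 24 with size factors of the DESeq2 type or library size alone, beside 25 in the main fit. They numbered 22 with upper-quartile scaling, 21 with thinned counts and 26 to 31 without a library. No share of all genes was computed for these counts. The log2 ratio of summed ligand levels was -1.22 in CPM and -1.37 in TPM.

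Signs turned for 7 genes. Without a library, Ppbp ranged from -5.45 to 4.28, Cxcl9 from -5.50 to 0.040, Cxcl11 from -1.04 to 6.79, Ccr7 from -4.68 to 1.15, Cxcr2 from -6.37 to 3.90 and Cxcr5 from -5.60 to 3.91. Cxcl11 was at 0.34 with every gene with a read, 2.24 with the replicate block and 2.85 with limma voom. Ccr7 was at -0.16 with upper-quartile scaling, Cxcr2 at -0.25 with the block and -0.80 with limma voom, and Cxcr5 at -0.11 with limma voom. Adam10 was at -0.082 with upper-quartile scaling and -3.8e-04 with thinned counts. The cause was not tested.

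Same-numbered libraries are linked in the labels by number alone. Their deviations from the group means correlated at 0.035 and 0.0057 over genes, and those of crossed pairs at -0.035 and -0.0057. With 2 intima libraries the deviations of one mirror those of the other. These values therefore cannot show whether an animal or day was shared. A leave-out of an adventitia library also leaves fewer libraries to test. Members at a few reads are limited by depth.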
